A study of Mus musculus with 10 samples.

Results

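T cells and natural killer (NK) cells were followed in mouse mammary tumours through 39 of their genes, taken by name from a count table of 57010 genes. All 39 were found. They cover the T cell receptor and its CD3 partners, co-receptors, proximal signalling, adhesion and co-stimulation, regulatory T cell and checkpoint genes, cytotoxic effectors, NK receptors, the receptors of interleukin-2 and interleukin-7, and transcription factors. The tumours came from mice of genotype PyMT; RHBDL4 -/- (knockout, 5 libraries) and PyMT; RHBDL4 +/+ (wild type, 5 libraries), all untreated and collected 5 weeks after tumour onset. Mice of both groups carried MMTV-PyMT, a viral oncogene under a promoter that is active mainly in mammary epithelium. Rhbdd1 encodes RHBDL4, a protease that sits in the membrane of the endoplasmic reticulum and belongs to the rhomboid family. The labels give no Cre driver for the deletion and no age, sex or strain. RNA came from whole tumour tissue with no sorting of cells, so lymphocytes were measured within a mixture. In such a mixture, fewer cells of a type and less RNA per cell cannot be told apart.

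A T cell recognises antigen with its T cell receptor, an alpha and a beta chain held in the membrane with the CD3 chains, which pass the signal to the kinases Lck and Zap70 and the adaptor Lat. CD8 T cells and NK cells kill target cells by releasing perforin and granzymes, while regulatory T cells, marked by Foxp3, restrain other T cells. Checkpoint receptors such as PD-1 and CTLA-4 dampen activated T cells, and in tumours they are known from T cells that have met antigen for a long time.

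The libraries held 25.7 to 43.3 M counts. Levels are CPM, counts per M counts of library size after TMM scaling, which corrects for differences in composition between libraries. Rhbdd1 ran from 13.2 to 22.3 CPM in knockout tumours and from 25 to 45.4 CPM in wild-type tumours. Wild-type replicate 5 stood apart from the rest. Its TMM factor was 0.588 against 1.007 to 1.101 in the others, and the epithelial gene Epcam stood at 29.1 CPM there against 1040 to 1590 CPM elsewhere. A list of 12 skeletal muscle genes summed to 158000 CPM in that library, against at most 1790 CPM in any other. Fold changes of the 39 genes are therefore given with all 10 libraries and without wild-type replicate 5. No batch shared between libraries is given in the labels. A leading number in the library names is common to wild-type replicates 1 and 2, to wild-type replicates 3 and 4 and to knockout replicates 3 and 4, and nothing says that each library is a separate animal. The p-values measure only how far these samples spread, and some of that spread may be technical. Without wild-type replicate 5, every wild-type library shares its leading number with another. If that number marks an animal, those libraries are not independent, the p-values could be too small and non-overlap would mean less.

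Lymphocyte transcripts were scarce. Of the 39 genes, 3 had a mean of 100 counts or more per library (Lck, Il2rg and Tcf7), 29 had 10 to 100, and 7 had fewer than 10. In 10 of the genes at least 1 library held no count. A count of 0 allows a level of up to 0.0644 to 0.109 CPM in 9 libraries and 0.2 CPM in wild-type replicate 5, taking 3 counts as the limit and counting error only. Summed over all 39 genes, the level was 58.1 ± 8.16 CPM in the 5 knockout libraries and 55.4 ± 13.5 CPM in the 5 wild-type libraries (mean ± SD, as for all levels below), and 54.7 ± 15.5 CPM in the 4 wild-type tumours without replicate 5. Tcf7 and Lck made up much of that sum. Without them it was 35.5 ± 7.60 CPM in knockout tumours and 27.6 ± 3.80 CPM in those 4 wild-type tumours, while wild-type replicate 5 alone held 54.8 CPM. The total of all 39 differed by less than the spread between libraries.

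None of the genes differed between the genotypes at an adjusted p under 0.05 in edgeR's quasi-likelihood test. With all 10 libraries 27 of the 39 passed the low-count filter and 0 were called. Over all 18577 genes tested 0 were called, which is 0%. With wild-type replicate 5 left out 28 passed and 0 were called, against 2 of all 19016 genes tested (0.0105%). DESeq2 and limma-voom with quality weights also called 0 of the 39 with all 10 libraries, against 50 and 17 of all 18577 genes tested. Without wild-type replicate 5 each called 1 of the 28, Il2rb, against 433 and 143 of all 19016 genes tested. Cd8b1, Cd5, Cd28, Foxp3, Ctla4, Tigit, Gzma, Ifng, Klrb1c, Tbx21 and Eomes were tested in neither fit, and Prf1 was tested only without wild-type replicate 5.

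At an unadjusted p under 0.05, Pdcd1 and Il2rb were higher in knockout tumours with all 10 libraries, 2 of 27 tested against 2.56% of all genes. Cd247 alone was lower, against 4.44% of all genes. Leaving out wild-type replicate 5 gave 6 higher of 28 (Il2rb, Pdcd1, Klrd1, Nkg7, Prf1 and Trbc1, 21.4%), against 5.74% of all genes. Lck and Cd247 were then lower (7.14%), against 5.85% of all genes. Log2 fold changes were above 0 for 16 of 27 genes with all 10 libraries (59.3%, all genes 43.8%) and for 20 of 28 without wild-type replicate 5 (71.4%, all genes 53.2%). The medians were 0.22 for these genes and -0.06 for all genes with all 10 libraries, and 0.56 and 0.03 without that library. Fold changes of Trac, Cd2, Lag3 and Ncr1 were above 0 only without wild-type replicate 5, and that of Tcf7 only with it. The filter can favour genes that are well counted in only 1 group. With no filter 28 of 39 were above 0 with all 10 libraries (71.8%) and 29 of 39 without wild-type replicate 5 (74.4%). The medians were then 0.57 and 0.73 for these genes, against -0.09 and -0.01 for all genes. The share of all genes above 0 was not counted with no filter, and the genes that enter are low in counts. Genes of some other tissues lay above 0 in the fit without wild-type replicate 5 too. These were 10 of 10 endothelial genes (median 0.35), 10 of 10 adipocyte genes (median 3.04), 12 of 12 skeletal muscle genes (median 3.4) and 9 of 10 fibroblast genes (median 0.41). With all 10 libraries these counts were 0, 1, 0 and 3. Other lists differed in the fit without wild-type replicate 5. Macrophage genes had 4 of 12 above 0 (median -0.06), pan-leukocyte genes 4 of 8 (-0.02), B and plasma cell genes 3 of 6 (0.09) and luminal genes 7 of 12 (0.07). Dendritic cell genes had 5 of 8 (0.29), neutrophil genes 7 of 8 (0.84), mast cell genes 4 of 5 (0.68) and lymph node genes 3 of 4 (2.76). The part of other tissues and cells in the lymphocyte values was not tested.

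**Figure D1:**
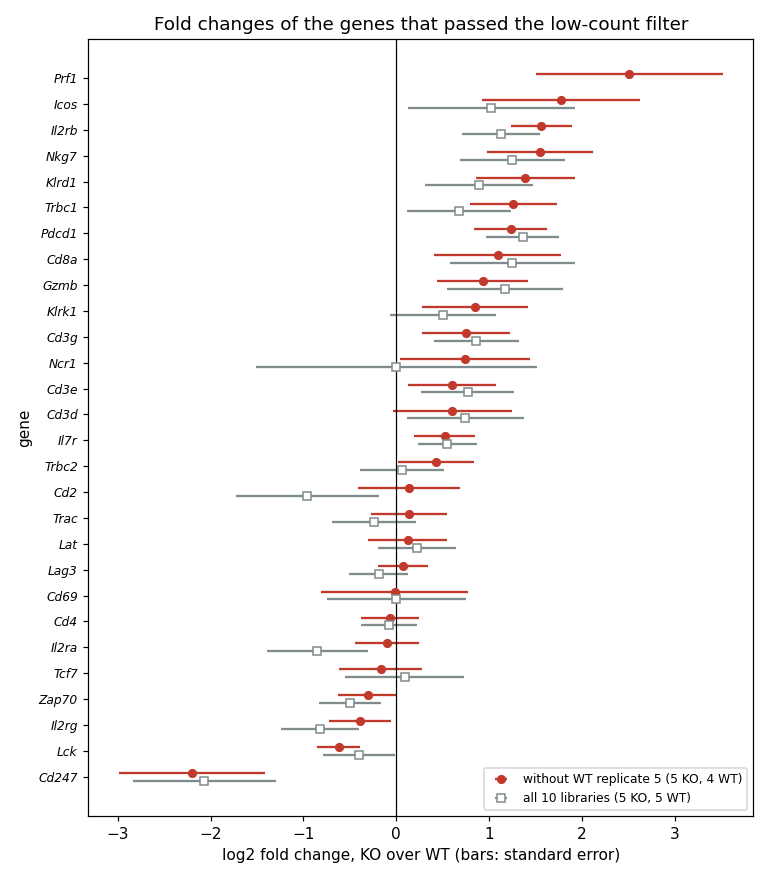
Log2 fold change of knockout over wild type for each gene that passed the low-count filter, with its standard error, from the fit with all 10 libraries and the fit without wild-type replicate 5. Genes run from the highest fold change at the top to the lowest at the bottom, in the order of the fit without that library. Il2rb lies at 1.56 and Cd247 at -2.20 without wild-type replicate 5, and none of the points passed the adjusted threshold.

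Among the receptor chains, none passed the test. Without wild-type replicate 5 the beta chain constant gene Trbc1 had the highest fold change of them and Cd247, the zeta chain, the lowest, while with all 10 libraries Cd3g was highest at 0.86 and Cd247 again lowest. Trbc1 and Trbc2 are neighbouring copies of the constant region of the beta chain, and a T cell uses 1 of them. Their first exons are identical at 374 of 375 bases (99.7%), and their first 3 exons differ at 19 of 500 bases. A stretch of 81 bases around the only difference in the first exon is shown because reads from it cannot be placed without that base. The coordinates and exons are those of GENCODE M21 on GRCm38, and the capital marks the base that differs.

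Trbc1, chr6:41538437-41538517, plus strand: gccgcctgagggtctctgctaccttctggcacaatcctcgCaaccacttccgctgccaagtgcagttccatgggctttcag
Trbc2, chr6:41546949-41547029, plus strand: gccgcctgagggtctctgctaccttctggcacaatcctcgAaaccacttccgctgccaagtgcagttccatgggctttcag

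The sources used here do not say how reads that match both copies were counted, so the split between them is uncertain and their sum is the firmer value. The sum of both was 1.15, 1.83, 1.20, 3.31 and 1.33 CPM in knockout replicates 1 to 5, against 0.784, 1.51, 0.923, 0.859 and 3.07 CPM in wild-type replicates 1 to 5. Knockout replicate 4 and wild-type replicate 5 were the highest of their groups, and the other knockout and wild-type libraries overlapped. For Trbc1 alone the log2 fold change was 0.67 ± 0.56 (SE) with all 10 libraries (edgeR adjusted p = 0.732). It was 1.26 ± 0.47 without wild-type replicate 5 (edgeR adjusted p = 0.368). With knockout replicate 4 also left out it was 0.88. Trbc2 gave 0.06 ± 0.45 with all 10 libraries and 0.43 ± 0.41 without wild-type replicate 5. Trac, the alpha chain constant gene, averaged 0.587 ± 0.251 CPM in knockout tumours and 0.713 ± 0.428 CPM in wild-type tumours, or 0.541 ± 0.216 CPM without replicate 5, which held 1.40 CPM. Its log2 fold change was -0.24 ± 0.45 with all 10 libraries and 0.14 ± 0.41 without that library.

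Cd3e, the CD3 chain that defines the T lineage, had 33, 45, 10, 27 and 10 counts in knockout replicates 1 to 5. Wild-type replicates 1 to 5 had 21, 17, 26, 14 and 2 counts. The knockout libraries spanned the wild-type ones on both sides, apart from the 2 counts of wild-type replicate 5. On the CPM scale Cd3e averaged 0.744 ± 0.452 in knockout tumours and 0.498 ± 0.117 in the 4 wild-type tumours without replicate 5, which is 0.60 ± 0.47 as a log2 fold change (edgeR adjusted p = 0.648). With all 10 libraries it was 0.77 ± 0.50 (adjusted p = 0.684). Cd3d and Cd3g, the delta and gamma chains, gave 0.74 ± 0.63 and 0.86 ± 0.46 with all 10 libraries, and 0.60 ± 0.64 and 0.75 ± 0.47 without wild-type replicate 5. Knockout replicate 3 had 1 count of Cd3d.

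Cd247, the zeta chain that carries most of the signalling motifs of the complex, had a fold change below 0. Its counts were 7, 16, 1, 17 and 16 in knockout replicates 1 to 5, against 18, 14, 181, 53 and 12 in wild-type replicates 1 to 5. Wild-type replicates 3 and 4, which share a leading number, were far above the rest, and the other 3 wild-type libraries lay within or next to the knockout range in counts. In CPM the highest knockout library stood at 0.512, below wild-type replicate 1 at 0.543 and wild-type replicate 5 at 0.801. Only wild-type replicate 2, at 0.340 CPM, lay within the knockout range on that scale. The log2 fold change was -2.07 ± 0.77 with all 10 libraries (edgeR adjusted p = 0.669) and -2.20 ± 0.79 without wild-type replicate 5 (adjusted p = 0.357). With wild-type replicate 3 also left out it was -1.20. The other CD3 chains were not high in wild-type replicate 3, where Cd3e stood at 0.558 CPM and Cd3g at 0.751 CPM. Exons of Cd247 overlap those of Pou2f1 on the other strand and of Gm16565 on the same strand. Pou2f1 stood at 15.2 to 25.3 CPM in knockout tumours and at 18.8 CPM in wild-type replicate 3, and Gm16565 had 19 counts there, its highest. Whether reads of either gene entered the Cd247 counts was not tested.

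Of the co-receptors, Cd4, carried by helper T cells and also, in rats and humans, by macrophages, differed between the groups by less than their spread. It averaged 2.13 ± 0.791 CPM in knockout tumours and 2.24 ± 0.422 CPM in wild-type tumours, a log2 fold change of -0.08 ± 0.30 with all 10 libraries (edgeR adjusted p = 0.944) and -0.07 ± 0.31 without wild-type replicate 5 (adjusted p = 0.952).

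Cd8a, the alpha chain of the co-receptor of killer T cells, had 18, 24, 7, 15 and 109 counts in knockout replicates 1 to 5, against 11, 22, 24, 17 and 2 in wild-type replicates 1 to 5. Knockout replicate 5 was far above the rest, and the other 4 knockout libraries overlapped the wild-type ones. The log2 fold change was 1.25 ± 0.67 with all 10 libraries (edgeR adjusted p = 0.669) and 1.09 ± 0.68 without wild-type replicate 5 (adjusted p = 0.559). With knockout replicate 5 also left out it was 0.08. Cd8b1, the beta chain that pairs with it on conventional CD8 T cells, had 3 counts in knockout replicate 5 and at most 6 in any library. Per kilobase of exon in knockout tumours Cd8a stood at 0.268 CPM and Cd8b1 at 0.0761 CPM. In the 4 wild-type tumours without replicate 5 these were 0.127 and 0.0547 CPM per kilobase.

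The kinase Lck, which starts signalling below the receptor, stood at 3.46, 3.04, 2.32, 3.74 and 3.22 CPM in knockout replicates 1 to 5, against 5.85, 5.88, 3.41, 4.49 and 1.20 CPM in wild-type replicates 1 to 5. Knockout replicates 1 and 4 reached into the range of wild-type replicates 1 to 4, and wild-type replicate 5 was below every knockout library. The log2 fold change was -0.62 ± 0.23 without that library (edgeR adjusted p = 0.373) and -0.40 ± 0.39 with it (adjusted p = 0.762). Per kilobase, Lck stood at 1.08 CPM in knockout tumours and 1.68 CPM in the 4 wild-type tumours, against 0.182 and 0.122 CPM per kilobase of Cd3e in the same groups. Trbc1 stood at 1.23 and 0.516 and Trbc2 at 1.22 and 0.913 CPM per kilobase there. In wild-type replicate 5, per kilobase, Lck stood at 0.410, Cd3e at 0.0327, Trbc1 at 1.96 and Trbc2 at 2.31 CPM. Zap70, the kinase recruited to the CD3 chains, averaged 0.365 ± 0.129 CPM in knockout tumours and 0.527 ± 0.182 CPM in wild-type tumours, a log2 fold change of -0.50 ± 0.33, and of -0.31 ± 0.32 without wild-type replicate 5. Lat, the adaptor both kinases act through, averaged 0.688 ± 0.374 CPM in knockout tumours and 0.580 ± 0.225 CPM in wild-type tumours, a log2 fold change of 0.22 ± 0.42, and of 0.12 ± 0.43 without wild-type replicate 5.

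Among adhesion and co-stimulation genes, Icos, a co-stimulatory receptor induced on activated and regulatory T cells, had 11, 14, 6, 46 and 8 counts in knockout replicates 1 to 5, against 10, 9, 4, 0 and 12 in wild-type replicates 1 to 5. Knockout replicate 4 was far above the others, and the remaining libraries overlapped. The log2 fold change was 1.77 ± 0.85 without wild-type replicate 5 (edgeR adjusted p = 0.465) and 1.02 ± 0.90 with it (adjusted p = 0.744). Cd2, an adhesion molecule of T and NK cells, averaged 0.523 ± 0.355 CPM in knockout tumours and 0.474 ± 0.191 CPM in the 4 wild-type tumours, and stood at 3.40 CPM in wild-type replicate 5. On the log2 scale this was -0.96 ± 0.77 with all 10 libraries and 0.14 ± 0.55 without that library. Cd28, the main co-stimulatory receptor, behaved likewise, with 0.135 to 0.572 CPM in knockout tumours, 0.146 to 0.241 CPM in wild-type replicates 1 to 4 and 1.80 CPM in wild-type replicate 5. Cd69, an early activation marker, was highest in wild-type replicate 1 at 1.66 CPM and in knockout replicate 4 at 1.21 CPM. Cd5, a restraint on receptor signalling, had at most 9 counts in any library.

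Of the checkpoint genes Pdcd1, Ctla4 and Tigit had higher means in knockout tumours with and without wild-type replicate 5, and Lag3 only without it. Pdcd1 and Lag3 were tested and neither passed. Pdcd1, which encodes PD-1, was at 0.693, 0.620, 0.726, 1.33 and 0.595 CPM in knockout replicates 1 to 5, against 0.181, 0.292, 0.537, 0.333 and 0.133 CPM in wild-type replicates 1 to 5. Every knockout library lay above every wild-type library, and Pdcd1 was the only gene of the 27 tested with all 10 libraries for which this held (all genes higher without overlap, 0.807%). Its fold change on the log2 scale was 1.36 ± 0.39 with all 10 libraries (edgeR adjusted p = 0.669) and 1.23 ± 0.39 without wild-type replicate 5 (adjusted p = 0.317). With knockout replicate 4 also left out it was 0.96.

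Ctla4, a checkpoint receptor of regulatory and activated T cells, had 16, 7, 23, 87 and 8 counts in knockout replicates 1 to 5, against 2, 4, 6, 3 and 4 in wild-type replicates 1 to 5. In counts every knockout library was above every wild-type one. In CPM the 0.267 of wild-type replicate 5, from 4 counts, exceeded the 0.216 and 0.217 of knockout replicates 5 and 2. Tigit, which binds the poliovirus receptor family, had 7, 7, 27, 45 and 16 counts in knockout replicates 1 to 5, against 3, 7, 10, 0 and 2 in wild-type replicates 1 to 5, and the groups overlapped. Foxp3, the factor that defines regulatory T cells, had 7, 11, 2, 16 and 3 counts in knockout replicates 1 to 5, against 2, 2, 6, 3 and 0 in wild-type replicates 1 to 5, and the groups overlapped. None of these 3 genes passed the low-count filter, so no test is given. Exons of Foxp3 overlap those of Ccdc22, Ppp1r3f and Gm36995 on the other strand and of Flicr on the same strand, and reads shared with them were not separated.

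Lag3, a receptor of exhausted T cells that binds MHC class II, averaged 1.63 ± 0.411 CPM in knockout tumours and 1.87 ± 0.757 CPM in wild-type tumours, with the highest level, 3.07 CPM, in wild-type replicate 5. Without that library the wild-type mean was 1.57 ± 0.403 CPM. On the log2 scale the fold change was -0.19 ± 0.32 with it and 0.07 ± 0.27 without it. Summed over Foxp3, Ctla4, Pdcd1, Lag3 and Tigit, knockout tumours held 4.15 ± 1.88 CPM, wild-type tumours 2.48 ± 0.856 CPM, and the 4 wild-type tumours without replicate 5 held 2.19 ± 0.668 CPM. Knockout replicate 4 had the highest sum, 7.38 CPM.

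Ctla4, Pdcd1 and Tigit were all highest in knockout replicate 4, and their promoters are shown for that reason. Each window runs from 250 bases before to 50 after the gene's start in RefSeq (GRCm38.p6), on the strand of the gene. Capitals mark matches on either strand to TGTGGT (RUNX), AGGTGT (T-box), AGGAAG (ETS) and CTTTGA (TCF/LEF), short cores of the sites of factor families at work in T and NK cells. No matches overlap in these windows.

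Pdcd1 promoter, chr1:94052504-94052803, minus strand: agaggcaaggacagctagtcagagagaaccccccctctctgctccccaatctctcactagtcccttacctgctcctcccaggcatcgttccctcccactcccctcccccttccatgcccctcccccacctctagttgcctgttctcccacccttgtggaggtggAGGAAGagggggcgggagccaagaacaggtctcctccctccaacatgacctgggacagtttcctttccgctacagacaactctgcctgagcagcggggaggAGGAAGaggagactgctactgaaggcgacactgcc
Ctla4 promoter, chr1:60908775-60909074, plus strand: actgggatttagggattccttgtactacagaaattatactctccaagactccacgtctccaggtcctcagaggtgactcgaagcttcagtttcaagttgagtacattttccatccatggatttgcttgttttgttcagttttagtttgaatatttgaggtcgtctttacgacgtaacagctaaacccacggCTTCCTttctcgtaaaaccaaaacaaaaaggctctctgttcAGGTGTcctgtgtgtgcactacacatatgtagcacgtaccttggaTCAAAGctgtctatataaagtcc
Tigit promoter, chr16:43664135-43664434, minus strand: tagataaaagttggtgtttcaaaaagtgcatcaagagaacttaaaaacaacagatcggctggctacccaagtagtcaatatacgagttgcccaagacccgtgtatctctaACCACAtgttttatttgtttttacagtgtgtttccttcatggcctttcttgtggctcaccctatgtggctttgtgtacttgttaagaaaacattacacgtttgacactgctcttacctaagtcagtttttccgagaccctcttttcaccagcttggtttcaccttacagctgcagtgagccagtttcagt

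The Pdcd1 window holds 2 ETS cores, starting 86 bases before and 15 after the start. The Ctla4 window holds an ETS core 59 bases before the start, a T-box core 18 before it and a TCF/LEF core 27 after it. Tigit holds a single RUNX core 140 bases before its start, so the 3 windows share no core. These matches are descriptions of letters, not of sites in use.

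**Figure D2:**
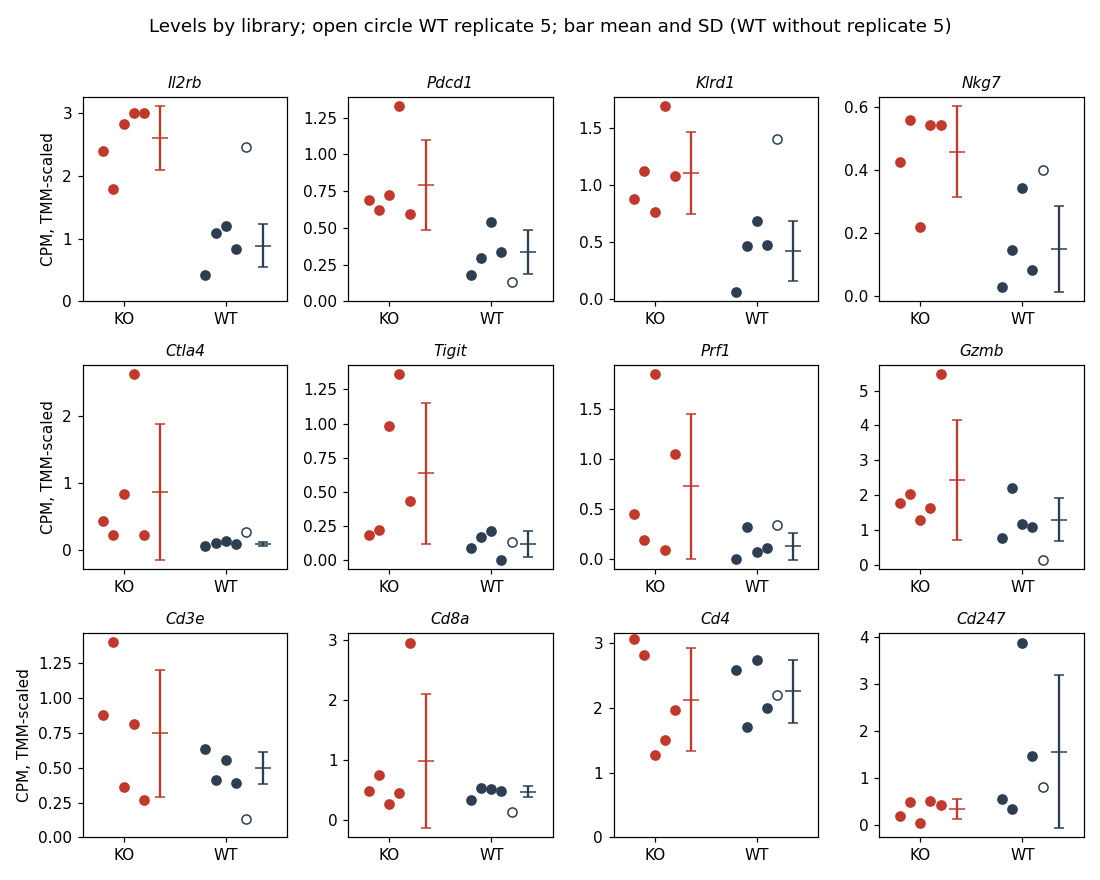
Level in CPM (vertical axis, own scale in each panel) of 12 genes in each knockout library (left in each panel) and each wild-type library (right), with a bar for the group mean and SD. Wild-type replicate 5 is the open circle and is left out of the wild-type mean and SD. Pdcd1 runs from 0.595 to 1.33 CPM in knockout tumours and from 0.133 to 0.537 CPM in wild-type tumours, while for Cd4 the groups lie over each other.

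Gzma, Gzmb, Prf1 and Nkg7, of the cytotoxic genes, had higher mean levels in knockout tumours. Gzmb and Nkg7 were tested in both fits and Prf1 in 1, and none passed. Nkg7, a granule membrane protein of killer cells, had 16, 18, 6, 18 and 20 counts in knockout replicates 1 to 5, against 1, 6, 16, 3 and 6 in wild-type replicates 1 to 5. Wild-type replicate 3 lay among the knockout libraries, as did wild-type replicate 5 in CPM, and knockout replicate 3 lay among the wild-type ones. The log2 fold change was 1.25 ± 0.57 with all 10 libraries (edgeR adjusted p = 0.669) and 1.55 ± 0.57 without wild-type replicate 5 (adjusted p = 0.361).

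Prf1, perforin, which opens the target cell membrane, had 17, 6, 51, 3 and 39 counts in knockout replicates 1 to 5, against 0, 13, 3, 4 and 5 in wild-type replicates 1 to 5. Knockout replicates 1, 3 and 5 were high and knockout replicates 2 and 4 were not. In the fit without wild-type replicate 5 its log2 fold change was 2.51 ± 1.01 (edgeR adjusted p = 0.392). Gzmb, the granzyme that cleaves caspases in the target, stood at 1.78, 2.02, 1.27, 1.63 and 5.46 CPM in knockout replicates 1 to 5, against 0.754, 2.19, 1.16, 1.08 and 0.133 CPM in wild-type replicates 1 to 5. Wild-type replicate 2 was above 4 of the 5 knockout libraries, and knockout replicate 5 was above all. Its log2 fold change was 1.17 ± 0.62 with all 10 libraries and 0.93 ± 0.49 without wild-type replicate 5. Gzma, a granzyme with another cleavage preference, had 55 counts in knockout replicate 5, at most 9 in the other knockout libraries and at most 14 in wild-type ones. Ifng, the interferon of activated T and NK cells, had 4 counts in knockout replicate 1 and 0 in the 9 other libraries, so its level could not be compared at this depth.

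The sum of these 5 genes was 4.12 ± 2.51 CPM in knockout tumours and 1.61 ± 0.812 CPM in wild-type tumours (1.69 ± 0.912 CPM without replicate 5), and 8.55 CPM in knockout replicate 5 alone. The 4 other knockout libraries had 2.53 to 3.63 CPM, a range that wild-type replicate 2 entered at 2.99 CPM. Gzma, Gzmb, Cd8a and Tbx21 were all highest in knockout replicate 5, and the promoters of both granzymes are shown with the same marking.

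Gzma promoter, chr13:113100932-113101231, minus strand: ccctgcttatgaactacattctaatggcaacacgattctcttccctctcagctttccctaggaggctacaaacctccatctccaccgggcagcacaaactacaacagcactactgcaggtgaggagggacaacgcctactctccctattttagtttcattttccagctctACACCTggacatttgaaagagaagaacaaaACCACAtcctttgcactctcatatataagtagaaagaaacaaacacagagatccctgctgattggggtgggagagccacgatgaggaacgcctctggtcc
Gzmb promoter, chr14:56262285-56262584, minus strand: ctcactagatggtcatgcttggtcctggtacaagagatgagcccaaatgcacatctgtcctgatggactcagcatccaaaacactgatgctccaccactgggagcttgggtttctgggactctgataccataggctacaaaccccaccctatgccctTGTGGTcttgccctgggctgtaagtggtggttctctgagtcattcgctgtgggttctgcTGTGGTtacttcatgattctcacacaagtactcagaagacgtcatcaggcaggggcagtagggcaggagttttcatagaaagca

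Gzma holds a T-box core 80 bases before the start and a RUNX core 50 before it. Gzmb holds 2 RUNX cores, 93 and 34 bases before its start. Promoter windows were found for 27 of the 39 genes, 33 windows in all. A RUNX core was in 42.4% of them against 16.8% of all 32851 windows of the same length, a T-box core in 27.3% against 13.7%, and an ETS core in 57.6% against 35.4%. A TCF/LEF core was in 15.2% against 16% of all windows. These shares describe the letters in a list chosen by lineage and were not tested.

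All 4 NK receptor genes had higher means in knockout tumours than in wild-type replicates 1 to 4. With wild-type replicate 5 included, only Klrk1 and Klrd1 did, and the means of Ncr1 and Klrb1c were lower in knockout tumours. Klrk1, Klrd1 and Ncr1 were tested and none passed. Klrd1 (CD94), the partner of the NKG2 receptors, stood at 0.879, 1.12, 0.762, 1.69 and 1.08 CPM in knockout replicates 1 to 5, against 0.0603, 0.462, 0.687, 0.471 and 1.40 CPM in wild-type replicates 1 to 5. Every knockout library lay above wild-type replicates 1 to 4, and wild-type replicate 5 lay above 4 of the 5 knockout libraries. As a log2 fold change this was 0.89 ± 0.58 with all 10 libraries (edgeR adjusted p = 0.685) and 1.39 ± 0.53 without wild-type replicate 5 (adjusted p = 0.375). Klrk1 (NKG2D), which senses stress ligands, averaged 0.974 ± 0.654 CPM in knockout tumours and 0.548 ± 0.285 CPM in the 4 wild-type tumours, and its groups overlapped. It gave 0.50 ± 0.57 on the log2 scale with all 10 libraries and 0.85 ± 0.57 without wild-type replicate 5.

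Ncr1 (NKp46), the receptor that defines NK cells, had 20, 11, 6, 5 and 17 counts in knockout replicates 1 to 5, against 0, 6, 13, 14 and 16 in wild-type replicates 1 to 5. The groups overlapped, and in CPM wild-type replicate 5 was the highest library at 1.07. Its log2 fold change was -0.00 with all 10 libraries (edgeR adjusted p = 1.00) and 0.74 ± 0.70 without wild-type replicate 5 (adjusted p = 0.703). The SE of the first, 1.51, is a ratio of values near 0 and is no guide to its error. Klrb1c (NK1.1) had 1 to 17 counts in knockout tumours, 0 to 4 in wild-type replicates 1 to 4 and 13 in wild-type replicate 5. NK1.1 is not made by every mouse strain, and the strain is not given in the labels. Summed over the 4 receptors the level was 2.61 ± 0.983 CPM in knockout tumours and 1.92 ± 1.57 CPM in wild-type tumours. It was 1.23 ± 0.355 CPM in the 4 wild-type tumours without replicate 5, and 4.67 CPM in wild-type replicate 5.

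Il2rb, the beta chain shared by the receptors of interleukin-2 and interleukin-15 on NK and T cells, had the smallest p of the 28 genes tested without wild-type replicate 5. Its levels were 2.40, 1.80, 2.83, 3.01 and 3.00 CPM in knockout replicates 1 to 5, against 0.422, 1.09, 1.20, 0.832 and 2.47 CPM in wild-type replicates 1 to 5. Every knockout library was above wild-type replicates 1 to 4, while wild-type replicate 5 lay within the knockout range. That level of wild-type replicate 5 came from 37 counts and its TMM factor of 0.588. The counts were 58 to 111 in knockout tumours and 14 to 56 in wild-type tumours. As a log2 fold change this was 1.13 ± 0.42 with all 10 libraries (edgeR adjusted p = 0.669) and 1.56 ± 0.33 without wild-type replicate 5 (adjusted p = 0.248). With all 10 libraries and no scaling factor it was 1.38 (edgeR adjusted p = 0.967). Without wild-type replicate 5 DESeq2 gave an adjusted p of 0.000449 and limma-voom with quality weights 0.0471, so Il2rb was called by both there. Those tools called 433 and 143 of all 19016 genes tested there. Il2rb was not called by edgeR, nor when libraries with the same leading number were summed (adjusted p = 0.932) or blocked (adjusted p = 0.738). With each of the 9 remaining libraries also left out in turn, the log2 fold change stayed between 1.33 and 1.75 and the edgeR adjusted p between 0.198 and 0.575. Without wild-type replicate 5, Il2rb, Klrd1 and Pdcd1 were the 3 of 28 tested genes with all knockout libraries above all wild-type ones (10.7%), against 1.76% of all genes. Each of those wild-type libraries shares its leading number with another. No tested gene lay below without overlap in either fit, against 1.18% of all genes with all 10 libraries and 3.87% without that library. Ctla4, not tested, had no overlap in CPM there either.

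None of the partner chains was called. Il2rg, the common gamma chain of several cytokine receptors and the most counted of the 4, averaged 5.89 ± 2.64 CPM in knockout tumours and 7.81 ± 2.08 CPM in the 4 wild-type tumours, with 20.8 CPM in wild-type replicate 5. Its log2 fold change was -0.82 ± 0.42 with that library and -0.39 ± 0.33 without it. Il2ra (CD25), the high-affinity chain of regulatory and activated T cells, averaged 0.786 ± 0.279 CPM in knockout tumours and 0.856 ± 0.264 CPM in the 4 wild-type tumours, with 3.87 CPM in wild-type replicate 5. It gave -0.85 ± 0.54 with that library and -0.10 ± 0.34 without it. Il7r, the receptor of resting and memory T cells, averaged 3.39 ± 1.21 CPM in knockout tumours and 2.40 ± 0.763 CPM in the 4 wild-type tumours, with a log2 fold change of 0.55 ± 0.32 with all 10 libraries and 0.52 ± 0.33 without wild-type replicate 5. Per kilobase, Il2rb stood at 0.608 CPM in knockout tumours and 0.207 CPM in the 4 wild-type tumours, Il2rg at 2.47 and 3.27 CPM.

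Of the transcription factors, Tcf7 (TCF-1), a factor of naive and memory T cells that some epithelia also express, was the most counted gene of the 39. It stood at 15.4, 10.9, 28.1, 23.2 and 19.3 CPM in knockout replicates 1 to 5, against 23.1, 45.0, 10.8, 9.95 and 2.07 CPM in wild-type replicates 1 to 5. The wild-type libraries spread further than the knockout ones in both directions. On the log2 scale the fold change was 0.09 ± 0.64 with all 10 libraries (edgeR adjusted p = 0.971) and -0.17 ± 0.45 without wild-type replicate 5 (adjusted p = 0.907). Per kilobase Tcf7 stood at 7.38 CPM in knockout tumours and 8.46 CPM in the 4 wild-type tumours, and at 0.788 in wild-type replicate 5. Which cells made its transcripts was not tested. Tbx21 (T-bet), which drives killer and helper type 1 programmes, had 16, 9, 2, 3 and 30 counts in knockout replicates 1 to 5, against 2, 4, 12, 7 and 5 in wild-type replicates 1 to 5. Eomes, its relative, had 2 to 9 counts in knockout tumours and 1 to 12 in wild-type tumours, and both genes overlapped between groups.

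**Figure D3:**
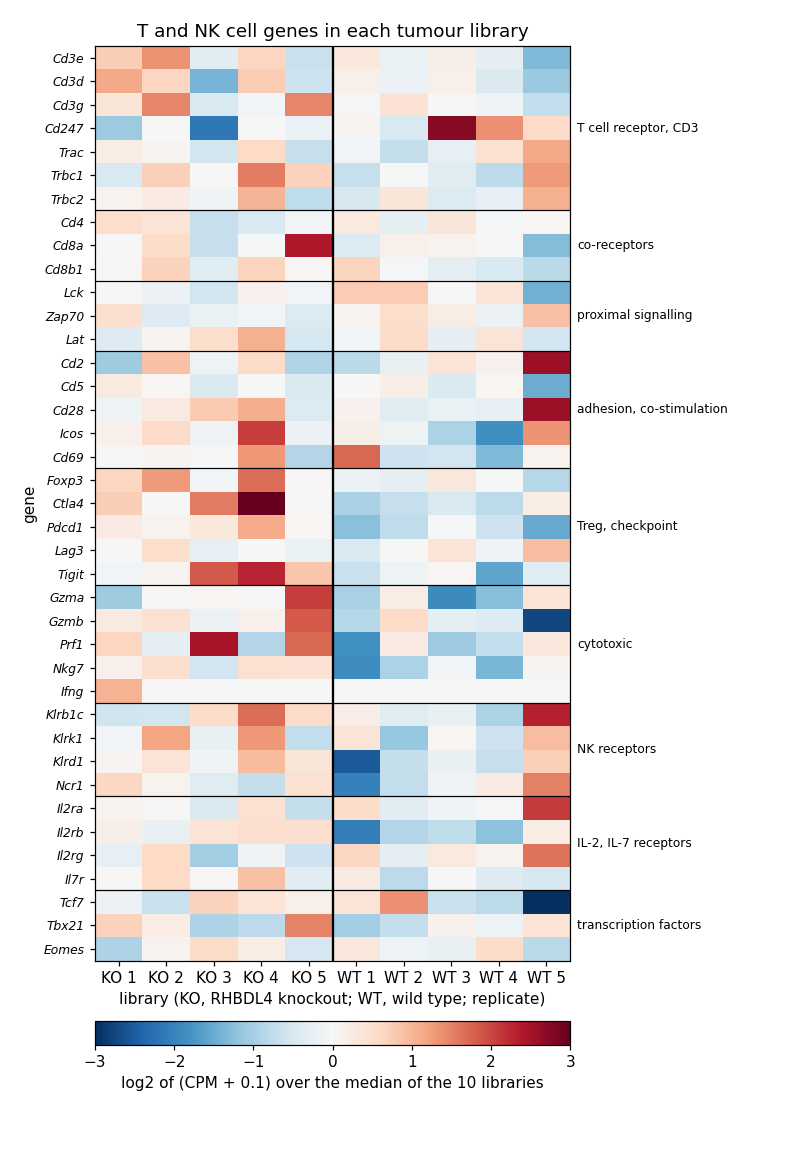
Each of the 39 genes (rows, by role) in each library (columns, knockout left, wild type right), as log2 of its level in CPM + 0.1 over its median across the 10 libraries, with colours limited at 3 either way. Knockout replicate 4 is highest in 11 genes and knockout replicate 5 in Cd3g, Cd8a, Gzma, Gzmb and Tbx21, while wild-type replicate 5 is high in some genes and low in others.

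By library, knockout replicate 4 had the highest level of 11 of the 39 genes and the lowest of none. These were Trbc1, Lat, Icos, Foxp3, Ctla4, Pdcd1, Tigit, Klrk1, Klrd1, Il2rb and Il7r. That library also held 1790 CPM of the skeletal muscle list and 1930 CPM of the adipocyte list, against at most 198 and 1680 CPM in the other knockout libraries. Its 10 lymph node and high endothelial venule genes summed to 237 CPM, of which the mucin-like gene Glycam1, also made by mammary epithelium, had 218 CPM. Knockout replicate 5 had 144 CPM of that list (138 CPM of Glycam1), and Chst4 was at 0 in every library. The list spanned 5.97 to 237 CPM in knockout tumours, 7.05 to 16.4 CPM in wild-type replicates 1 to 4 and 119 CPM in wild-type replicate 5. Among B and plasma cell genes Ms4a1, the B cell surface protein CD20, had 0 to 1 counts in knockout tumours and 0 to 5 in wild-type tumours, and Cd79a, a chain of the B cell receptor, had 6 to 16 counts in knockout tumours and 5 to 17 in wild-type tumours. The light chain Igkc ran from 0.436 to 25.3 CPM in knockout tumours and from 0.392 to 5.30 CPM in wild-type replicates 1 to 4, with 7.41 CPM in wild-type replicate 5. Jchain, which joins secreted antibodies, ran from 0.145 to 8.90 CPM in knockout tumours and from 0.365 to 2.79 CPM in wild-type replicates 1 to 4. All 15 B and plasma cell genes, immunoglobulins included, summed to 45.2 to 81.7 CPM in knockout tumours, 41.8 to 86.1 CPM in wild-type replicates 1 to 4 and 242 CPM in wild-type replicate 5. The part of B cells or lymph node in the T and NK cell values was not tested.

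Knockout replicate 5 was highest in Cd3g, Cd8a, Gzma, Gzmb and Tbx21. Wild-type replicate 5 had the highest level of 10 genes, among them Trac, Trbc2, Zap70, Cd2, Cd28 and Il2rg, and the lowest of 11, among them Cd3e, Cd3g, Lck, Pdcd1, Gzmb and Tcf7. It had 21 counts of Trac and 2 of Cd3e. Wild-type replicate 1 had the lowest level of 8 genes, namely Ctla4, Lag3, Prf1, Nkg7, Klrd1, Ncr1, Il2rb and Tbx21. It was also the lowest library for 10 fibroblast genes, 193 CPM against 1550 to 5970 CPM in wild-type replicates 2 to 4 and 3510 to 7340 CPM in knockout tumours. Its 10 neutrophil genes summed to 1310 CPM, against at most 326 CPM in any other library. With wild-type replicate 1 also left out, the log2 fold change was 1.33 for Il2rb and 1.04 for Klrd1. Ptprc (CD45), carried by all leukocytes, ran from 11.1 to 26.0 CPM in knockout tumours and from 13.3 to 23.5 CPM in wild-type replicates 1 to 4, so the groups overlapped.

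**Figure D4:**
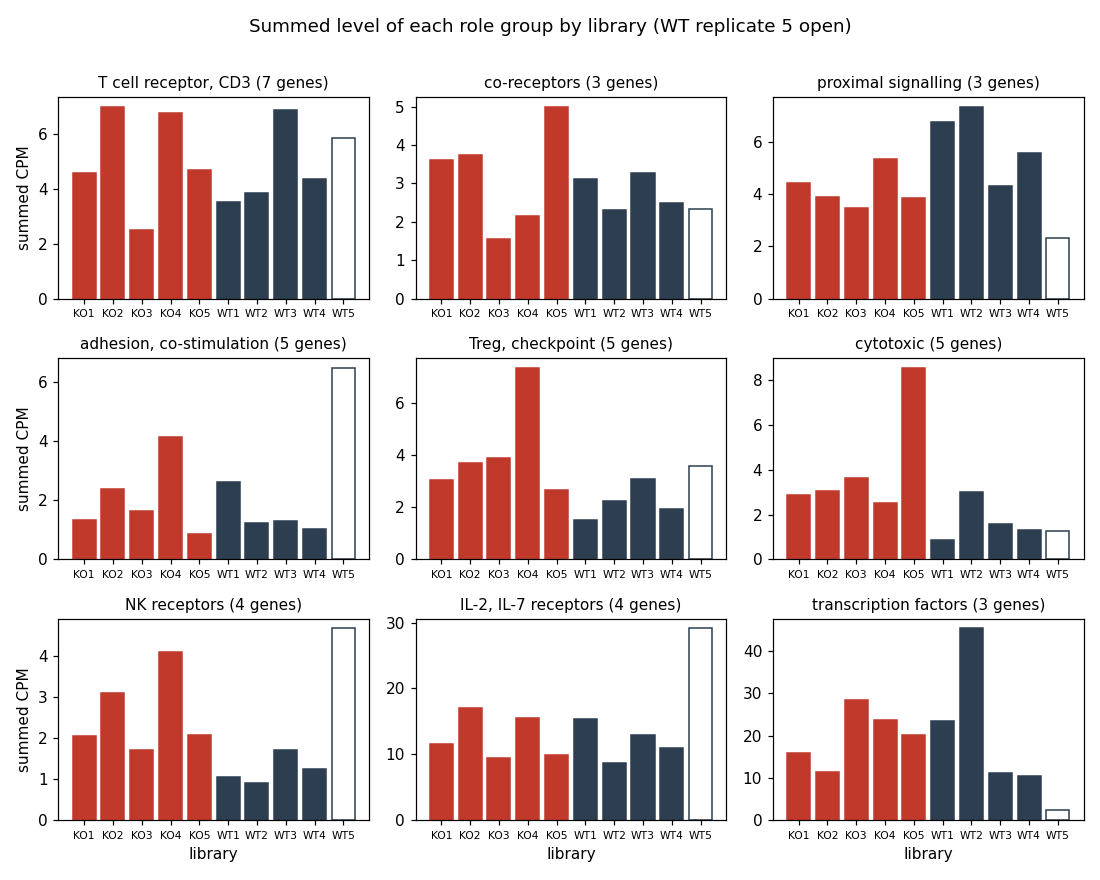
Summed level in CPM of the genes of each role in each knockout library (bars on the left of each panel) and each wild-type library (bars on the right), with wild-type replicate 5 as the open bar. The cytotoxic sum is highest in knockout replicate 5 at 8.55 CPM, the checkpoint sum in knockout replicate 4 at 7.38 CPM and the NK receptor sum in wild-type replicate 5 at 4.67 CPM.

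Other genes of these pathways were read from lists, in which none was called in either fit. Counts, medians and fold changes below are from the fit without wild-type replicate 5 unless said otherwise. Of all genes in that fit 53.2% lay above 0, against 43.8% with all 10 libraries. At an unadjusted p under 0.05, 5.74% of all genes were higher and 5.85% lower without wild-type replicate 5. Of 30 further genes of T cell receptor signalling 19 were tested and 12 had a fold change above 0, with a median of 0.26 (all genes 0.03), against 12 of 18 and 0.22 with all 10 libraries. Only Rasgrp1, Ptpn22 and Fyb reached an unadjusted p under 0.05, all higher. Rasgrp1, which activates Ras below the receptor, averaged 2.04 ± 0.746 CPM in knockout tumours and 1.14 ± 0.337 CPM in the 4 wild-type tumours, with 0.85 ± 0.33 on the log2 scale (edgeR adjusted p = 0.382). Ptpn22, a phosphatase that restrains Lck, gave 1.10 ± 0.46, and the adaptor Fyb 0.48 ± 0.21.

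Of 30 further cytotoxic and NK genes 20 were tested, 15 had a fold change above 0 and the median was 0.18, against 9 of 19 and -0.03 with all 10 libraries. Gzmf alone was higher at an unadjusted p under 0.05, and 3 were lower. S1pr5, a receptor that lets mature NK cells leave tissue for the blood, averaged 0.473 ± 0.130 CPM in knockout tumours and 1.26 ± 0.629 CPM in the 4 wild-type tumours, with -1.38 ± 0.38 on the log2 scale (edgeR adjusted p = 0.296). Itga2, an integrin of NK cells that epithelium also carries, averaged 8.45 ± 3.58 CPM in knockout tumours and 21.8 ± 9.26 CPM in the 4 wild-type tumours. Its log2 fold change was -1.35 ± 0.39 (edgeR adjusted p = 0.299).

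Of 12 genes of gamma-delta T cells and innate lymphoid cells 8 were tested and 7 had a fold change above 0, with a median of 0.61, against 5 of 6 and 0.46 with all 10 libraries. Tcrg-C4, a gamma chain constant gene with close copies, averaged 0.408 ± 0.225 CPM in knockout tumours and 0.130 ± 0.0735 CPM in the 4 wild-type tumours. Of 17 genes of the common gamma chain cytokines and their signalling 13 were tested, 6 had a fold change above 0 and the median was -0.03, against 5 of 13 and -0.03 with all 10 libraries. Il4ra, the interleukin-4 receptor chain found on many cell types, was the only one at an unadjusted p under 0.05, with 0.62 ± 0.26.

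Of 16 genes that draw or keep T cells in tissue 14 were tested and 11 had a fold change above 0, with a median of 0.49, against 8 of 14 and 0.14 with all 10 libraries. Ccl21a, a chemokine of lymphatic vessels and lymph node stroma, stood at 2.37 to 3.46 CPM in knockout tumours, against 0 to 0.638 CPM in wild-type replicates 1 to 4 and 21 CPM in wild-type replicate 5. Leaving that library out, its log2 fold change was 3.83 ± 0.88 (edgeR adjusted p = 0.279), and it has near-identical copies in the mouse genome. Of 13 exhaustion genes and checkpoint ligands 12 were tested, 8 had a fold change above 0 and the median was 0.11, against 5 of 12 and -0.10 with all 10 libraries. Tox, a factor of exhausted T cells, ran from 0.512 to 1.07 CPM in knockout tumours and from 0.121 to 0.499 CPM in wild-type replicates 1 to 4, with 1.40 CPM in wild-type replicate 5. The log2 fold change was 1.25 ± 0.41 (edgeR adjusted p = 0.326). Havcr2 (TIM-3), a checkpoint receptor that macrophages also carry, gave 0.54 ± 0.19.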

How the data were processed

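Whole tumour RNA was measured in 5 knockout and 5 wild-type libraries, poly(A) selected and stranded per the labels' protocols. The values are raw read counts per gene as the authors deposited them. FastQC, STAR, featureCounts, DESeq2 and the build GRCm39 are named, per the submitters' processing notes. Not given in the sources used here are versions, annotation release, strand setting and how multi-matching reads were handled. There were 0 count columns without a sample.

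The 39 genes and all lists were chosen with earlier results of these data known. Knockout was compared with wild type by edgeR 4.0.16 (R 4.3.3), quasi-likelihood F-test with robust dispersions, TMM scaling and filterByExpr, over all genes, with Benjamini-Hochberg adjustment and a threshold of 0.05. The fit was repeated without wild-type replicate 5. Levels without a test use the TMM factors of all 10 libraries. The SE is the size of the log2 fold change over the square root of F, which is not reliable where both are near 0. Fold changes are printed for Cd3e, Cd4, Cd8a, Ncr1 and Foxp3 (where tested), for genes with an unadjusted p under 0.05, for the gene with the smallest p in each role, and for up to 3 genes of each further list. Fold changes of the other tested genes and the B and plasma cell genes named were added after their values were seen. Alternatives were RLE scaling or none, no filter, a mean of at least 1 CPM, DESeq2 1.42.0, limma-voom (limma 3.58.1) with quality weights, sums or a random block by leading number, and leaving out each library. The steps were tested on simulated data. DESeq2 gave no adjusted p for 8 of the 27 genes tested with all 10 libraries and 6 of 28 without wild-type replicate 5, and these were left as missing. Exon lengths and overlaps came from GENCODE M21 (GRCm38), not the build of the counts. Promoters are RefSeq's (GRCm38.p6). Intervals and limits cover counting error only. 1 B cell marker is not reported here.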

Additional observations from a re-analysis of the deposited data

Results flagged for a closer look

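In each group of 5 libraries the gap between the most extreme library and its neighbour was set against the group's range, for each gene and each summed role. Of 97 such groups 19 held a library beyond the 95% limit of Dixon's test, in each case the highest of its group. The limit is passed by about 5% of groups only where values are normal and independent. Levels from low counts need not be normal and the summed roles reuse the same genes, so no excess over chance can be read from these numbers.

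In knockout tumours, replicate 4 was far above the other 4 libraries in Ctla4 (2.62 CPM, others 0.216 to 0.835), Icos (1.39 CPM, others 0.216 to 0.434), Pdcd1 (1.33 CPM, others 0.595 to 0.726) and Cd69 (1.21 CPM, others 0.189 to 0.465). It was also above them in the sum of regulatory T cell and checkpoint genes (7.38 CPM, others 2.68 to 3.92). Knockout replicate 5 was far above the others in Cd8a (2.95 CPM, others 0.254 to 0.744), Gzmb (5.46 CPM, others 1.27 to 2.02), Gzma (1.49 CPM, others 0.0799 to 0.290) and the cytotoxic sum (8.55 CPM, others 2.53 to 3.63). Knockout replicate 1 was high in Zap70 (0.586 CPM) and was the only library with counts of Ifng (0.107 CPM). Knockout replicate 2 was high in Lag3 (2.33 CPM).

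In wild-type tumours, replicate 5 was far above the other 4 in Cd2 (3.40 CPM, others 0.241 to 0.687), Cd28 (1.80 CPM, others 0.146 to 0.241), Il2ra (3.87 CPM, others 0.632 to 1.24), Klrb1c (0.867 CPM, others 0 to 0.121) and Trbc1 (1.47 CPM, others 0.277 to 0.559). The same held for the sum of NK receptors (4.67 CPM, others 0.899 to 1.72). Wild-type replicate 1 was high in Cd69 (1.66 CPM, others 0.111 to 0.467). The genes of 1 library share that library's RNA, so these are not separate observations.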

How the results depend on the processing

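The count of called genes was 0 under every alternative with all 10 libraries. Without wild-type replicate 5 it was 1 with DESeq2 and 1 with limma-voom and quality weights, Il2rb in both, and 0 otherwise. Those tools called 433 and 143 of all genes there, against 2 in edgeR. With all 10 libraries they called 50 and 17 of all genes, against 0 in edgeR. Genes with a fold change above 0 numbered 16 of 27 with all 10 libraries, 28 of 39 with no filter and 5 of 10 at a mean of at least 1 CPM. Without wild-type replicate 5 they numbered 20 of 28, and 5 of 9 at that mean. Fewer or more genes enter under those filters, and the share of all genes above 0 was not counted under the alternatives. At that mean the medians were 0.01 for these genes and -0.06 for all genes with all 10 libraries. Without wild-type replicate 5 they were 0.07 and 0.02. Library totals with no scaling moved the median of all genes to 0.07, against -0.06, and 20 of 27 genes were then above 0 (74.1%, against 59.3%).

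Of 446 fold changes of named genes under alternatives, 418 kept direction and call, 2 became called and 26 turned sign, all in genes near 0 in the main fits. No gene was called in the main fits, and this count ignores the size of a change. With all 10 libraries Cd8a fell from 1.25 to 0.24 without knockout replicate 5, and Icos from 1.02 to 0.21 without knockout replicate 4. Both count as kept. With all 10 libraries Cd4 gave 0.07 with no scaling, 0.02 in limma-voom with quality weights and 0.05 with libraries summed by leading number, and -0.24 to 0.06 over the libraries left out in turn. Ncr1 gave 0.31 with no scaling, 0.02 with no filter, 0.60 in limma-voom with quality weights and 0.64 with the leading number as a block, and -0.34 to 0.74 over the libraries left out. Tcf7 gave -0.17 to 0.75 over them. Without wild-type replicate 5, Cd4 gave 0.04 in limma-voom with quality weights, 0.05 with libraries summed and -0.23 to 0.07 over the libraries left out, and Tcf7 gave 0.39 in limma-voom and -0.42 to 0.42 over them. The cause was not tested. The log2 ratio of the summed level of all 39 genes was 0.07, 0.06 with RLE scaling, 0.20 with no scaling, 0.09 without wild-type replicate 5 and -0.13 as a share of 8 pan-leukocyte genes, of whose counts Lcp1 gave 72.6%. Each alternative moved it by less than the spread between libraries (SD 0.27 on the log2 scale). No paired analysis was possible because the labels give no pairing and no leading number is common to a knockout and a wild-type library. The labels give no replicate numbers either, and those used were set in accession order. Low counts limit the precision of all genes but Lck, Il2rg and Tcf7.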

Other observations

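The granzymes C, D, E and F, which lie beside Gzmb and are made by activated killer cells, were not among the 39 genes. Their sequences are close to each other, so how reads were divided among them is uncertain. Gzmc had 80, 29, 105, 30 and 102 counts in knockout replicates 1 to 5, against 2, 59, 46, 61 and 0 in wild-type replicates 1 to 5. Gzmf had 69, 8, 186, 3 and 131 counts in knockout replicates 1 to 5, against 0, 25, 1, 9 and 0 in wild-type replicates 1 to 5, with a log2 fold change of 3.49 ± 1.36 without wild-type replicate 5 (edgeR adjusted p = 0.381). Gzmd had 71, 6, 111, 1 and 145 counts in knockout replicates 1 to 5, against 0, 22, 2, 32 and 0 in wild-type replicates 1 to 5. Gzme had 19, 4, 53, 7 and 50 counts in knockout replicates 1 to 5, against 1, 21, 0, 87 and 0 in wild-type replicates 1 to 5. Knockout replicates 1, 3 and 5 were the highest libraries for Gzmc, Gzmd and Gzmf, as they were for Prf1, while Gzme was highest in wild-type replicate 4. Wild-type replicate 5 held none of the 4. Gzmc, Gzmd and Gzme were picked out after their values were seen.

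Trdc, the delta chain constant gene of gamma-delta T cells, had 7 to 16 counts in knockout tumours and 2 to 12 in wild-type tumours, and the groups overlapped.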
